A study of Homo sapiens with 6 samples.

Results

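The 36 genes described here belong to the amino acid response that runs through the transcription factor ATF4, and they include 17 genes of cytosolic aminoacyl-tRNA synthetases. They were listed by name, by a rule that uses no measured value, although earlier results of these data were known when the list was made, and all 36 were found among the 58676 gene identifiers of the count table through their GENCODE symbols. The counts came from MRC5 cells, an established line of human lung fibroblasts, which had spent 24 h in conditioned media (CM) from ATII ER:KRASV12 cells. These are alveolar epithelial type II (ATII) cells carrying a RAS protein that 4-hydroxytamoxifen (4-OHT) switches on. MRC5 cells in CM from untreated ATII ER:KRASV12 cells (control ATII CM, n = 3) were compared with MRC5 cells in CM from ATII ER:KRASV12 cells given 4-OHT for 24 h (4-OHT ATII CM, n = 3). The comparison asks whether fibroblasts in the medium of RAS-activated epithelial cells showed the transcriptional signs of amino acid shortage. All libraries are from 1 fibroblast line and all media from 1 epithelial line. RAS activation in the donor cells and 4-OHT carried over in their medium cannot be told apart, since no group received 4-OHT without activated RAS. No label states whether the 3 libraries of a group came from separate cultures, so p values measure the spread between these libraries, which may be technical.

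When a cell runs short of an amino acid, uncharged tRNA activates the kinase GCN2, which phosphorylates the translation factor eIF2. Most protein synthesis then slows while translation of ATF4 rises, and ATF4, with C/EBP family partners, turns on genes for amino acid synthesis, amino acid uptake and tRNA charging. Because ATF4 is controlled mainly at translation, the mRNA levels of its target genes, rather than its own, are the usual readout of the response in RNA-Seq. Other stresses that phosphorylate eIF2, such as stress of the endoplasmic reticulum (ER), use the same factor.

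ATF4 and its partners bind composite C/EBP-ATF response elements (CAREs). RefSeq promoters (GRCh38.p14, from 250 bases before to 50 bases after a transcription start) were at hand for 29 of the 36 genes, and not for *NUPR1*, *PSPH*, *SHMT2*, *ALDH1L2*, *LARS1*, *VARS1* and *YARS1*. The letters TGATGNAA, or TTNCATCA on the other strand, were present in 10 of these 29 genes (34.5%), namely *AARS1*, *ASNS*, *CARS1*, *CEBPG*, *CHAC1*, *GARS1*, *IARS1*, *MARS1*, *NARS1* and *TARS1*, and in 4.46% of the 27305 genes in the promoter table. A match describes the letters in the window and does not show a bound site. Stretches of 6 of the 10 promoters that held these letters are printed 5′ to 3′ on the strand of the gene, with the match in capitals.
*GARS1*, chr7:30594818-30594877, plus strand: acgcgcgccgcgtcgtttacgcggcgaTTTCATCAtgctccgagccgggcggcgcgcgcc
*ASNS*, chr7:97872443-97872502, minus strand: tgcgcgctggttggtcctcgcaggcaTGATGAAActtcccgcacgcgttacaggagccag
*IARS1*, chr9:92293698-92293757, minus strand: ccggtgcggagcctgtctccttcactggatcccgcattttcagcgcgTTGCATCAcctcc
*CHAC1*, chr15:40953236-40953295, plus strand: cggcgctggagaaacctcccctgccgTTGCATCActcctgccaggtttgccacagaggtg
*AARS1*, chr16:70289660-70289719, minus strand: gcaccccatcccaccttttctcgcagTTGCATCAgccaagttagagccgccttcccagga
*CEBPG*, chr19:33374045-33374104, plus strand: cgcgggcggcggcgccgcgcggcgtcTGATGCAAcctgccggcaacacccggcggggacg

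The windows of the 2 genes that rose in 4-OHT ATII CM, *WARS1* and *CEBPB*, did not hold these letters, which says only that the letters are not in those windows. The *WARS1* window instead held letters of 2 elements known from interferon signaling. One was GAAA, any 2 bases and GAAA again, searched on both strands, the core of the interferon-stimulated response element (ISRE), found in 2 of the 29 genes, *ATF5* and *WARS1*, and in 4.38% of all genes in the table. The other was TTCNNNGAA, which reads the same on both strands and is the core of the gamma-activated site (GAS), found in *CARS1*, *TARS1* and *WARS1* and in 9.38% of all genes. The 3 motifs were chosen after the values were seen. The stretch of the *WARS1* promoter that holds the last 2 is shown because this gene had the clearest change, with the GAS letters as the first run of capitals and the ISRE letters as the second.
*WARS1*, chr14:100375378-100375507, minus strand: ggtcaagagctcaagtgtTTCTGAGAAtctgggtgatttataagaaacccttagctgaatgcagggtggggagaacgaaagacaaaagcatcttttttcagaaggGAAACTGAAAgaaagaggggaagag

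Library totals ranged from 17691849 to 26389449 counts, and 35 of the 36 genes had at least 100 counts in every library. The first principal component, with 32.2% of the variance, separated the 2 groups, and the second, with 22.5%, set control replicate 2 apart. The fibroblast label was checked against marker genes. All 10 fibroblast markers were detected, with summed levels of 41095.2 to 44612.3 CPM (library-size-adjusted counts, with TMM factors) in control ATII CM and 42969.2 to 44710.8 CPM in 4-OHT ATII CM. *COL1A1* averaged 17731.4 ± 946.9 and 16630.5 ± 275.2 CPM (edgeR adjusted p = 0.0861) and was called lower by limma-voom (0.0457), without TMM (0.0383), with filterByExpr (0.0473), without the count filter (0.0117) and without control replicate 2 (1.8e-05). Of the list, *COL3A1* (log2 fold change 0.18), *DCN* (0.33), *LUM* (0.29) and *PDGFRA* (0.22) were called higher and *VIM* (-0.10, adjusted p = 0.0414) lower, the last not with the replicate block (0.057), without the count filter (0.0606), or with any 4-OHT library or control replicate 3 left out (0.0759 to 0.212). Of 12 epithelial markers, 6 had under 10 counts over all libraries, *SFTPA1* and *NKX2-1* had none, *KRT18* was at 53.5 ± 1.01 and 51.8 ± 2.94 CPM, and the list summed to 92.8 to 98.6 CPM in control and 90.4 to 96.4 CPM in 4-OHT ATII CM. Of 8 endothelial and blood cell markers, 6 had under 10 counts, *PECAM1*, *CDH5* and *CD3E* had none, *VWF* averaged 0.41 and 0.335 CPM, and the sums were 0.515 to 0.618 and 0.319 to 0.562 CPM.

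As a group, the 36 genes stayed close to their control level. By edgeR's quasi-likelihood test with Benjamini-Hochberg adjustment over the 19072 genes tested, 2 of the 36 genes (5.56%) were differentially expressed genes (DEGs), beside 5.72% of all genes tested. Both, *WARS1* and *CEBPB*, were upregulated, where 2.95% of all genes were called higher. None was downregulated, where 2.76% of all genes were called lower, and DESeq2 and limma-voom also called 0 of the 36 lower. At an unadjusted p under 0.05, 5 of the 36 were higher and 5 lower (27.8% in all). Of all genes tested, 17.3% were under it in either direction, a share that also stands behind each later count at this p. The shares called by edgeR (5.72% in all, 2.95% higher and 2.76% lower) likewise stand behind each later count of calls. The median log2 fold change was -0.012 over the 36 genes and -0.002 over all genes tested, with 14 of the 36 above 0 and 22 below. Their summed level was 7520.7 to 7598.1 CPM in control ATII CM and 7574.2 to 7679.9 CPM in 4-OHT ATII CM. In bulk RNA such levels cannot tell a shift in the share of cells that express a gene from a shift in RNA per cell.

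Most of the intervals were narrow. The 95% interval of the log2 fold change lay within 0.1 of 0, a change of 7.18%, for 10 genes, within 0.2 (14.9%) for 27 genes and within 0.5 (41.4%) for 34 genes. The exceptions were *CARS1*, with an upper bound of 0.553, and *VARS1*, which had 32 counts in all. The CPM values of the 2 groups did not overlap for 13 of the 36 genes (36.1%), of which 7 lay higher with 4-OHT ATII CM and 6 lay lower, where 22.1% of all genes tested had groups without overlap. Lack of overlap alone does not establish a shift. Of these 13 genes only *WARS1* and *CEBPB* were called, and *AARS1* was among the others (log2 fold change 0.01, edgeR adjusted p = 0.904). An exact two-sided permutation test of 1 gene cannot go below p = 0.1 with 3 libraries against 3.

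**Figure D1:**
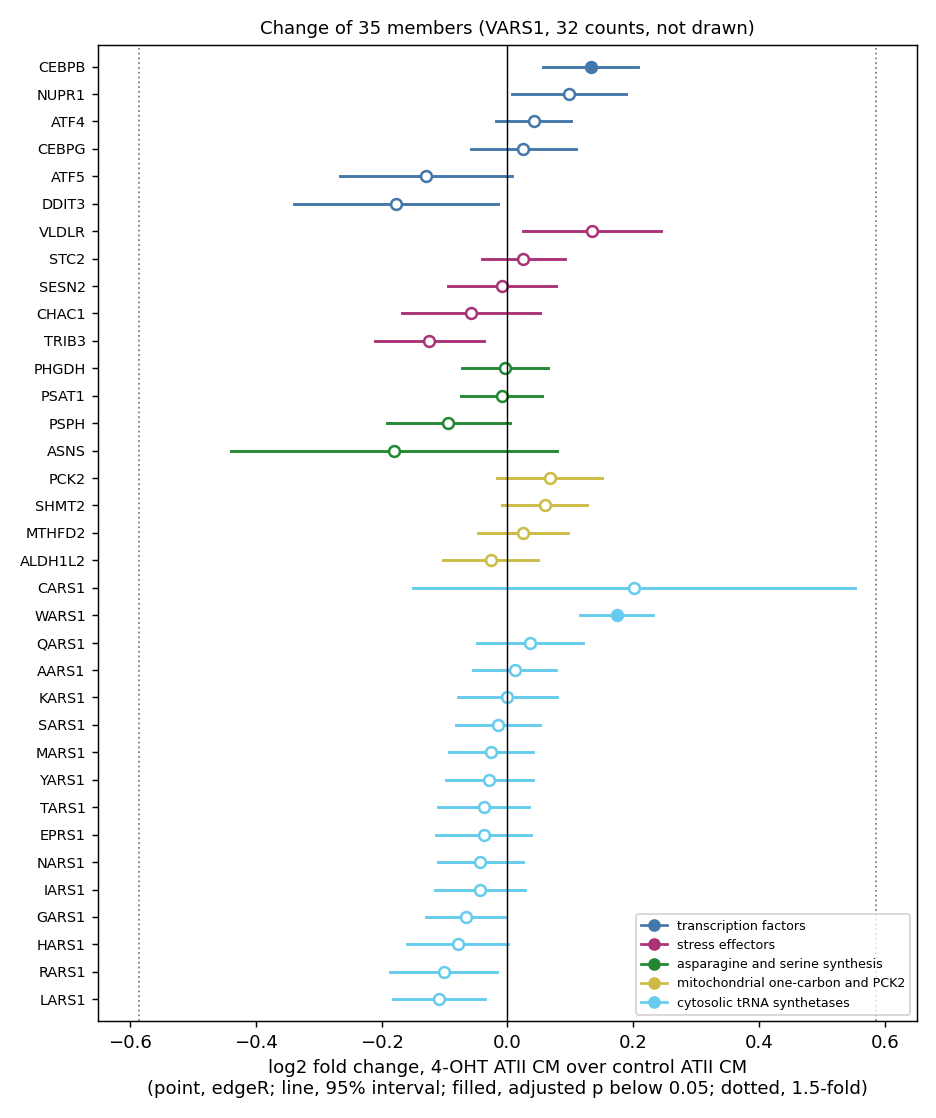
Log2 fold change (4-OHT ATII CM over control ATII CM) of the genes, with 95% intervals from edgeR as lines, colored and ordered by role, with filled points for DEGs and dotted lines at a 1.5-fold change. *VARS1*, with 32 counts, is not drawn. *CEBPB* at 0.13 and *WARS1* at 0.17 are the filled points, no point reaches the dotted lines, and *CARS1* (upper bound 0.553) and *ASNS* (lower bound -0.44) have the widest intervals.

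Among the transcription factors, *ATF4* itself (ENSG00000128272, chr22:39519695-39522685, plus strand) was measured at 593.5, 587.4 and 595.3 CPM in control ATII CM and at 604.5, 610.5 and 613.4 CPM in 4-OHT ATII CM. The 4-OHT libraries were all above the control libraries, by a small margin. The means were 592.1 ± 4.17 and 609.4 ± 4.55 CPM (SD, n = 3), and the log2 fold change of 0.04 (SE 0.0279, 95% interval -0.018 to 0.101) did not pass the test (edgeR adjusted p = 0.501). Per kilobase of exon, *ATF4* had the highest control level of the 36 genes, at 235.5 CPM per kb.

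*CEBPB* (ENSG00000172216, chr20:50190734-50192689, plus strand) encodes C/EBPβ, a partner of ATF4 that also responds to cytokines. It was measured at 146.1, 145.2 and 149.5 CPM in control ATII CM and at 163.8, 156.6 and 163.0 CPM in 4-OHT ATII CM, without overlap. The rise of 9.64% (log2 fold change 0.13, SE 0.0354) passed narrowly, with an edgeR adjusted p of 0.0377. None of the 36 genes passed when a change of at least 1.5-fold was also required. *CEBPB* was called in 6 of the other 13 alternative settings, in which its adjusted p ranged from 0.00955 to 0.182. The call was lost without TMM scaling (adjusted p = 0.057) and with replicate number as a block (0.0553). It was also lost without control replicate 1 (0.115) or 3 (0.101) and without 4-OHT replicate 1 (0.121), 2 (0.0637) or 3 (0.182), with log2 fold changes between 0.122 and 0.152 throughout. An antisense transcript, *CEBPB-AS1*, shares 231 exon bases with it and had 45 counts against 20872. Of the other C/EBP genes, added after the values were seen, *CEBPD* rose from 164.7, 181.2 and 181.8 CPM to 209.6, 205.9 and 212.8 CPM (log2 fold change 0.25, edgeR adjusted p = 0.00128), while *CEBPA*, at 0.183 and 0.123 CPM on average, was not called (0.787) and *CEBPE* had too few counts to be tested.

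The other 4 transcription factors were not called. *DDIT3* encodes CHOP, a C/EBP family protein induced by prolonged eIF2 phosphorylation. It was measured at 21.5, 21.8 and 22.6 CPM in control and at 21.8, 17.6 and 19.0 CPM in 4-OHT ATII CM, so that 4-OHT replicate 1 lay within the control range and the others below it (log2 fold change -0.18, 95% interval -0.34 to -0.015, edgeR adjusted p = 0.233). Its exons share 39.6% of their bases with other genes, including 355 bases with *MARS1* and 58 with *MBD6* (log2 fold change -0.07, adjusted p = 0.542) on the opposite strand, and how the counting treated strand is not given in the sources used here. *ATF5*, a stress-induced relative of *ATF4*, went from 25.3 ± 1.48 to 23.1 ± 1.19 CPM (adjusted p = 0.319) and shares 21.2% of its exon bases with *NUP62* on the opposite strand, which differed by -0.08 on the log2 scale (0.424). *CEBPG*, whose product pairs with ATF4, differed by 0.03 on the log2 scale (adjusted p = 0.816). *NUPR1*, a stress-induced chromatin protein gene, was at 239.2 ± 6.61 CPM in control and 255.8 ± 15.8 CPM in 4-OHT ATII CM, with overlapping groups (adjusted p = 0.243).

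**Figure D2:**
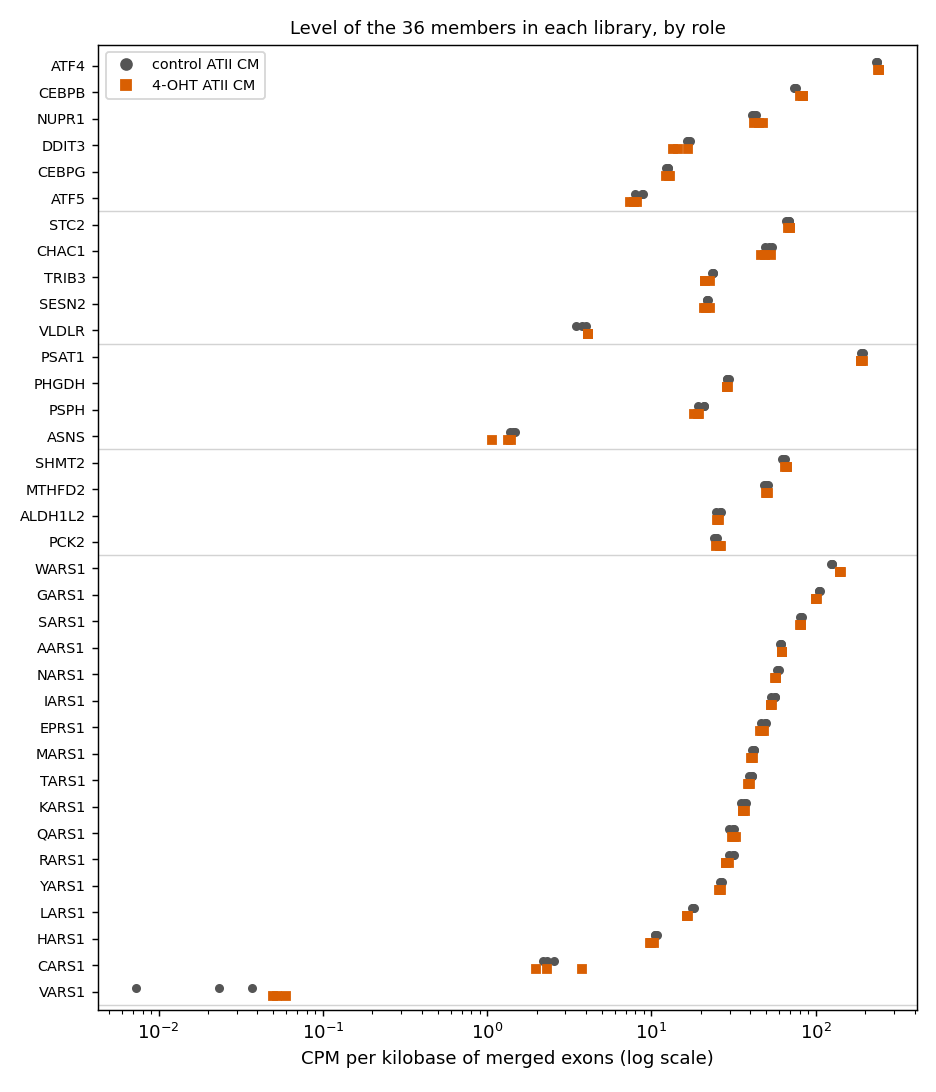
Level of the 36 genes in each of the 6 libraries as CPM per kilobase of merged exons (log axis), with circles for control ATII CM, squares for 4-OHT ATII CM and gray lines between the roles. Mean control levels run from 0.0224 CPM per kb for *VARS1* to 235.5 CPM per kb for *ATF4*, and the libraries of both groups lie close together for most genes, with *VARS1* and *CARS1* the most spread.

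The stress effectors are among the most inducible ATF4 targets. None of the 5 was called in either direction, where edgeR called 5.72% of all genes tested, so that 0 among 5 is near that share. At an unadjusted p under 0.05, 1 was higher and 1 lower, and DESeq2 and limma-voom made 0 calls. *TRIB3* encodes a pseudokinase that feeds back on ATF4 and AKT. It was measured at 81.8, 80.1 and 82.0 CPM in control and at 72.7, 78.6 and 72.6 CPM in 4-OHT ATII CM, so that all 4-OHT libraries were below all control libraries. Its log2 fold change of -0.12 (SE 0.0411, 95% interval -0.211 to -0.037) had an edgeR adjusted p of 0.101, and among the alternatives it was called lower only when control replicate 2 was left out (adjusted p = 0.0494).

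*CHAC1* encodes an enzyme that degrades glutathione and is often used as a marker of ATF4 and CHOP activity. Its level was 101.6, 107.1 and 112.0 CPM in control and 95.5, 110.8 and 101.6 CPM in 4-OHT ATII CM, with overlapping groups (log2 fold change -0.06, 95% interval -0.168 to 0.052, edgeR adjusted p = 0.638). *SESN2*, the gene of a leucine sensor that restrains mTORC1, averaged 75.5 ± 0.864 and 75.0 ± 3.03 CPM (adjusted p = 0.948). *VLDLR*, a lipoprotein receptor gene induced by ATF4, was at 37.1, 32.6 and 35.1 CPM in control and at 38.5, 38.5 and 38.2 CPM in 4-OHT ATII CM. These groups did not overlap, yet the log2 fold change of 0.13 had an adjusted p of 0.17. *STC2*, which encodes the secreted glycoprotein stanniocalcin-2, differed by 0.02 on the log2 scale (adjusted p = 0.761).

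The genes of asparagine and serine synthesis make the amino acids whose supply ATF4 most directly controls. All 4 had a log2 fold change below 0, with a median of -0.052, where 49.5% of all genes tested lay above 0. *PHGDH* (-0.0036) and *PSAT1* (-0.0094) were close to 0 and changed sign in some alternatives. None of the 4 was called, near the 5.72% of all genes tested that edgeR called. None reached an unadjusted p under 0.05, and DESeq2 and limma-voom made 0 calls. *ASNS* (ENSG00000070669, chr7:97852118-97872542, minus strand) encodes asparagine synthetase, whose promoter element printed among the sequences is a classical amino acid response element. It was low in these fibroblasts, at 6.14, 6.38 and 6.62 CPM in control and 6.21, 4.77 and 5.94 CPM in 4-OHT ATII CM. One 4-OHT library lay within the control range and the others below it, with a log2 fold change of -0.18 (SE 0.122, 95% interval -0.44 to 0.078, edgeR adjusted p = 0.504).

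The *ASNS* level needs a caution. A second identifier on the same strand, ENSG00000284707, shares 1985 of the 4455 *ASNS* exon bases (44.6%) and has a near-identical transcript. It had 66 counts over all libraries against 806 for *ASNS*, and how reads that fit both were treated is not given in the sources used here. The 3 serine synthesis genes, which convert a glycolytic intermediate to serine in successive steps, were far better measured. *PHGDH*, the gene of the first enzyme, was at 264.9, 274.1 and 266.7 CPM in control and at 266.1, 270.9 and 266.7 CPM in 4-OHT ATII CM, a 95% interval of -0.072 to 0.064 on the log2 scale (adjusted p = 0.974). *PSAT1*, the gene of the aminotransferase, was at 415.8, 420.8 and 427.0 CPM against 414.1, 425.8 and 415.5 CPM, with an interval of -0.074 to 0.055 (adjusted p = 0.926). The groups overlapped for both genes. *PSPH*, the gene of the phosphatase that completes the pathway, averaged 56.1 ± 2.67 and 52.5 ± 1.97 CPM (log2 fold change -0.09, adjusted p = 0.311).

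Mitochondrial folate metabolism breaks down serine and supplies formate, and *PCK2* encodes the mitochondrial form of phosphoenolpyruvate carboxykinase. None of these 4 genes was called, near the 5.72% of all genes tested that edgeR called. There were 0 at an unadjusted p under 0.05 and 0 calls by DESeq2 or limma-voom. *SHMT2*, which splits serine into glycine and a folate-bound carbon, was at 303.8, 316.0 and 306.0 CPM in control and at 316.8, 323.9 and 323.7 CPM in 4-OHT ATII CM. The groups did not overlap, and the log2 fold change of 0.06 (95% interval -0.009 to 0.127) had an edgeR adjusted p of 0.371. *MTHFD2* differed by 0.02 (adjusted p = 0.784), *ALDH1L2* by -0.03 (0.781) and *PCK2* by 0.07 (0.429) on the log2 scale.

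The cytosolic aminoacyl-tRNA synthetases load each amino acid onto its tRNA, and many of their genes are ATF4 targets. Of the 17, 1 was upregulated and none downregulated by edgeR, DESeq2 or limma-voom, where edgeR called 5.72% of all genes tested. At an unadjusted p under 0.05, 2 were higher and 3 lower. The 2 higher were *WARS1* and *VARS1*, which had only 32 counts in all. The log2 fold change was above 0 for 5 and below 0 for 12, with a median of -0.029, and their summed level was 4125.3 to 4137.5 CPM in control and 4136.4 to 4173.0 CPM in 4-OHT ATII CM. Groups did not overlap for 8 of the 17, with 3 higher (*WARS1*, *VARS1* and *AARS1*) and 5 lower, beside 22.1% of all genes tested.

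The single DEG was *WARS1* (ENSG00000140105, chr14:100333788-100376805, minus strand), which encodes tryptophanyl-tRNA synthetase. This enzyme is long known to be induced by interferon gamma as well as by ATF4. The level was 802.6, 788.1 and 796.4 CPM in control and 891.1, 906.2 and 894.4 CPM in 4-OHT ATII CM, with every 4-OHT library well above every control library. The means of 795.7 ± 7.27 and 897.2 ± 7.95 CPM (SD, n = 3) gave a rise of 12.8%, or 0.17 on the log2 scale (SE 0.0269, 95% interval 0.116 to 0.231), with an edgeR adjusted p of 0.001. *WARS1* was called in all 13 alternative settings that keep the same threshold, and not where a change of at least 1.5-fold was also required, with log2 fold changes of 0.164 to 0.183 and adjusted p between 4.44e-07 and 0.0134. Its exons share 287 bases with *WDR25* on the opposite strand, which had 2258 counts against 114871.

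Among the other synthetase genes, 3 had groups without overlap that lay lower in 4-OHT ATII CM at an unadjusted p under 0.05. *LARS1*, for leucine, was at 146.7, 145.0 and 142.7 CPM in control and at 133.6, 133.0 and 136.2 CPM in 4-OHT ATII CM. All 4-OHT libraries were lower, yet the difference of -0.11 on the log2 scale (SE 0.0345, 95% interval -0.182 to -0.035) had an edgeR adjusted p of 0.085 and passed in none of the alternatives (0.0566 to 0.237). *RARS1*, for arginine, was at 108.2, 108.1 and 100.9 CPM against 96.9, 97.6 and 100.9 CPM, a log2 fold change of -0.10 (adjusted p = 0.181). The lowest control and the highest 4-OHT library of *RARS1* were nearly equal. *GARS1*, for glycine, was at 436.0, 442.8 and 437.3 CPM against 414.4, 423.9 and 418.7 CPM, a log2 fold change of -0.07 (adjusted p = 0.256). *HARS1* (histidine) and *NARS1* (asparagine) also lay lower without overlap, at -0.08 and -0.04 on the log2 scale (adjusted p = 0.297 and 0.559).

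A further 9 synthetase genes lay within 0.05 of 0 on the log2 scale, with edgeR adjusted p from 0.571 to 0.997. They are *AARS1*, *EPRS1*, *IARS1*, *KARS1*, *MARS1*, *QARS1*, *SARS1*, *TARS1* and *YARS1*, which charge tRNA with alanine, glutamate and proline, isoleucine, lysine, methionine, glutamine, serine, threonine and tyrosine. *AARS1* was the tightest, at 277.0 ± 2.45 CPM in control and 279.3 ± 0.435 CPM in 4-OHT ATII CM. The intervals of all 9 lay within 0.2 of 0.

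The remaining 2 synthetase genes could not be judged well. *CARS1* (cysteine) was at 25.7, 23.2 and 22.1 CPM in control and at 23.3, 19.9 and 37.9 CPM in 4-OHT ATII CM, so that 4-OHT replicate 3 alone stood high, with 997 counts where the other libraries had 415 to 548. The log2 fold change was 0.20 with all libraries (SE 0.165, edgeR adjusted p = 0.599) and -0.136 without that library (0.546). Its transcript has a copy on 1 alternate contig of the reference. *VARS1* (valine) had 3, 4 and 1 counts in control and 7, 9 and 8 in 4-OHT ATII CM. The fitted log2 fold change was 1.30 with a 95% interval of 0.057 to 2.538 (adjusted p = 0.261). Copies of its transcript lie on 6 alternate contigs, and whether reads that map to several places were counted is not given in the sources used here.

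**Figure D3:**
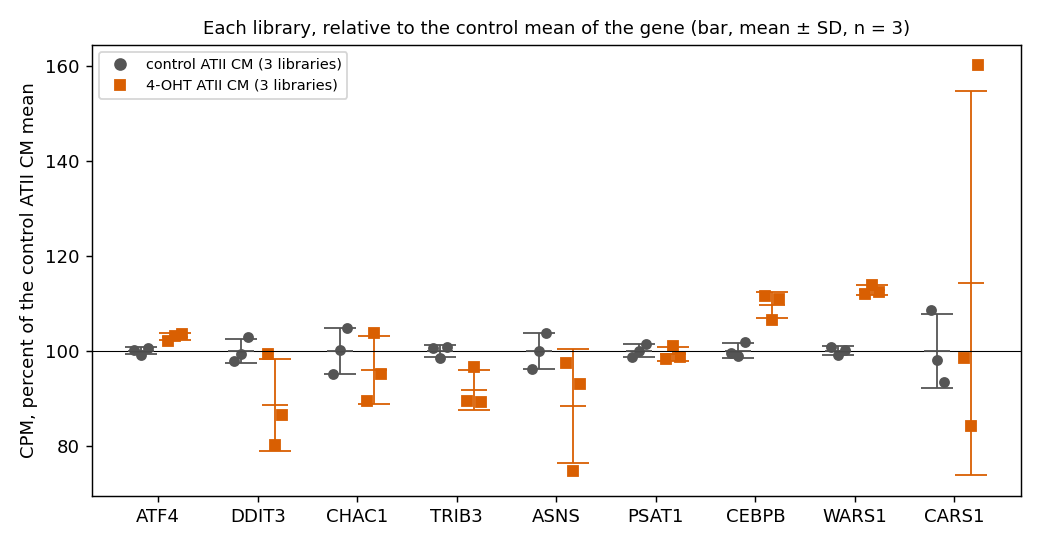
CPM of 9 genes in each library as percent of the gene's mean in control ATII CM, with circles for control and squares for 4-OHT libraries, and bars for the mean ± SD of 3 libraries. The 4-OHT libraries of *CEBPB* and *WARS1* sit above all control libraries, those of *TRIB3* below, and 4-OHT replicate 3 of *CARS1* stands alone at 37.9 CPM where the control mean is 23.7 CPM.

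None of the 10 genes whose promoters held the CARE letters was called by edgeR, DESeq2 or limma-voom, where edgeR called 5.72% of all genes tested, so that a count of 0 among 10 is near that share. Of the 10, 1, *GARS1*, had an unadjusted p under 0.05. Beside *WARS1*, 7 other interferon-responsive genes were read, chosen after the values were seen, and 3 of them were upregulated. *GBP2*, a guanylate-binding protein gene, rose from 43.8, 45.2 and 43.6 CPM to 56.2, 56.6 and 54.6 CPM (log2 fold change 0.34, edgeR adjusted p = 0.000143). *IRF1*, a transcription factor gene, rose from 53.0 ± 1.71 to 64.2 ± 2.82 CPM (0.28, adjusted p = 0.0011). *GBP1* (0.08, adjusted p = 0.359), *ISG15* (0.07, 0.507), *IFIT1* (0.03, 0.903) and *CXCL10* (0.88, 0.224) were not called. Whether interferon signaling had a part in the *WARS1* level was not tested.

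Other parts of amino acid metabolism were read from lists of related genes. Of 23 other ATF4 target genes tested, 1 rose and 1 fell by edgeR, with a median log2 fold change of -0.003 and with 5 higher and 5 lower at an unadjusted p under 0.05. DESeq2 called 1 higher and 2 lower, and limma-voom 2 higher and 2 lower. The added calls, named after their values were seen, were *PPP1R15A*, which encodes the eIF2 phosphatase subunit GADD34 (-0.13, edgeR adjusted p = 0.067), lower by both, and *ATF3*, a stress-induced transcription factor gene (0.23, 0.0547), higher by limma-voom. Leaving out 1 library gave 0 to 3 called higher and 1 to 3 called lower, with 3 and 3 without control replicate 2. *KLHL24* rose from 29.1, 25.8 and 30.5 CPM to 37.3, 32.4 and 33.6 CPM (0.27, edgeR adjusted p = 0.0284), a call lost without control replicate 1 (0.0642) or 2 (0.0545) and without 4-OHT replicate 1 (0.113) or 3 (0.0693). *SLC7A1*, the gene of the transporter CAT1 for arginine and lysine, fell from 96.8, 91.2 and 90.0 CPM to 80.1, 75.3 and 82.0 CPM (-0.23, adjusted p = 0.00476), without overlap and in all 13 alternatives other than the minimum of 1.5-fold. *SLC38A2*, which encodes the amino acid transporter SNAT2 and is a strong marker of amino acid starvation, was at 1389.8 CPM in control and 1395.1 CPM in 4-OHT ATII CM (adjusted p = 0.95).

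Genes that sense amino acids were read next. Among 13 genes of eIF2 kinases and eIF2 control, none rose and 1 fell, with 1 higher and 3 lower at an unadjusted p under 0.05 and 0 called higher by DESeq2 or limma-voom. *GCN1*, which encodes the ribosome-bound activator of GCN2, fell from 134.0, 115.4 and 137.9 CPM to 112.4, 111.2 and 113.5 CPM (-0.20, edgeR adjusted p = 0.0331). That call was lost without control replicate 1 (0.117) or 3 (0.162) and without 4-OHT replicate 1 (0.0985), 2 (0.126) or 3 (0.082). *EIF2AK4*, the gene of GCN2, differed by -0.01 (adjusted p = 0.943), and *EIF2AK1*, the gene of the heme-regulated eIF2 kinase, by 0.06 (0.392). Of 15 genes of amino acid sensing by mTORC1, *SESN3* alone was called, with 12 above 0, a median of 0.065, and 4 higher and 0 lower at an unadjusted p under 0.05. It encodes a sestrin under control of FOXO factors, and it rose from 32.9, 31.4 and 33.0 CPM to 41.2, 39.3 and 40.9 CPM (0.32, adjusted p = 0.000717), in all 13 alternatives other than the minimum of 1.5-fold. Its relative *SESN2*, an ATF4 target, was not called, and *RRAGA*, the gene of a Rag GTPase, was at 104.7 ± 1.59 and 105.8 ± 5.26 CPM (adjusted p = 0.912).

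Neither ER stress markers nor the remaining synthetase complex genes gave a call. Of the 9 ER stress markers, 2 were lower at an unadjusted p under 0.05, the median was -0.008, and DESeq2 and limma-voom made 0 calls. *HSPA5*, the gene of the ER chaperone BiP, was at 1312.5 ± 13.8 and 1257.6 ± 24.0 CPM (edgeR adjusted p = 0.238). The 6 other genes of the cytosolic synthetases and their complex had 2 lower at an unadjusted p under 0.05, a median of -0.077 and 0 calls by DESeq2 or limma-voom. Of 16 mitochondrial synthetase genes tested, 1 was called, with a median of -0.028, while *IARS2* differed by -0.01 (adjusted p = 0.908). *PARS2*, for proline, rose from 4.45, 4.59 and 4.32 CPM to 6.3, 6.3 and 5.48 CPM (0.43, edgeR adjusted p = 0.0419). It was not called by DESeq2 (0.104), with the replicate block (0.054), without control replicate 1 (0.112) or 3 (0.147), or without 4-OHT replicate 1 (0.12), 2 (0.148) or 3 (0.054).

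Cytosolic folate and thymidylate genes moved apart from the mitochondrial ones. Of 11 other serine, glycine and folate genes, 3 were downregulated and none upregulated by edgeR, DESeq2 or limma-voom, with 0 higher at an unadjusted p under 0.05 and *SFXN1*, a mitochondrial serine transporter gene, at -0.04 (adjusted p = 0.68). *MTHFD1*, the cytosolic counterpart of the mitochondrial folate enzymes, fell from 45.4 ± 1.05 to 38.8 ± 2.56 CPM (-0.23, edgeR adjusted p = 0.0152), a call lost without control replicate 3 (0.074) or 4-OHT replicate 2 (0.083). *TYMS*, the gene of thymidylate synthase, fell from 17.8 ± 1.36 to 13.8 ± 0.634 CPM (-0.37, adjusted p = 0.00887). These genes serve DNA synthesis, and 11 of 12 cell division markers fell in the same libraries, with a median of -0.471 and summed levels of 484.9 to 516.6 CPM in control and 356.1 to 392.2 CPM in 4-OHT ATII CM. *MKI67*, the proliferation marker, fell from 41.5 ± 4.6 to 24.2 ± 0.896 CPM (-0.78, adjusted p = 1.01e-05). The others that fell were *TOP2A* (-0.56), *CDK1* (-0.48), *CCNB1* (-0.53), *CCNA2* (-0.44), *BUB1* (-0.60), *AURKB* (-0.69), *MCM2* (-0.46), *MCM3* (-0.22), *MCM5* (-0.39) and *MCM7* (-0.34), and *PCNA* was not called (-0.11, adjusted p = 0.242). *MCM2* lost its call without control replicate 3 (0.0624) or 4-OHT replicate 2 (0.0651), and *MCM3* without 4-OHT replicate 2 (0.0508). The part of proliferation in the levels of the folate genes and of the 36 genes was not tested.

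**Figure D4:**
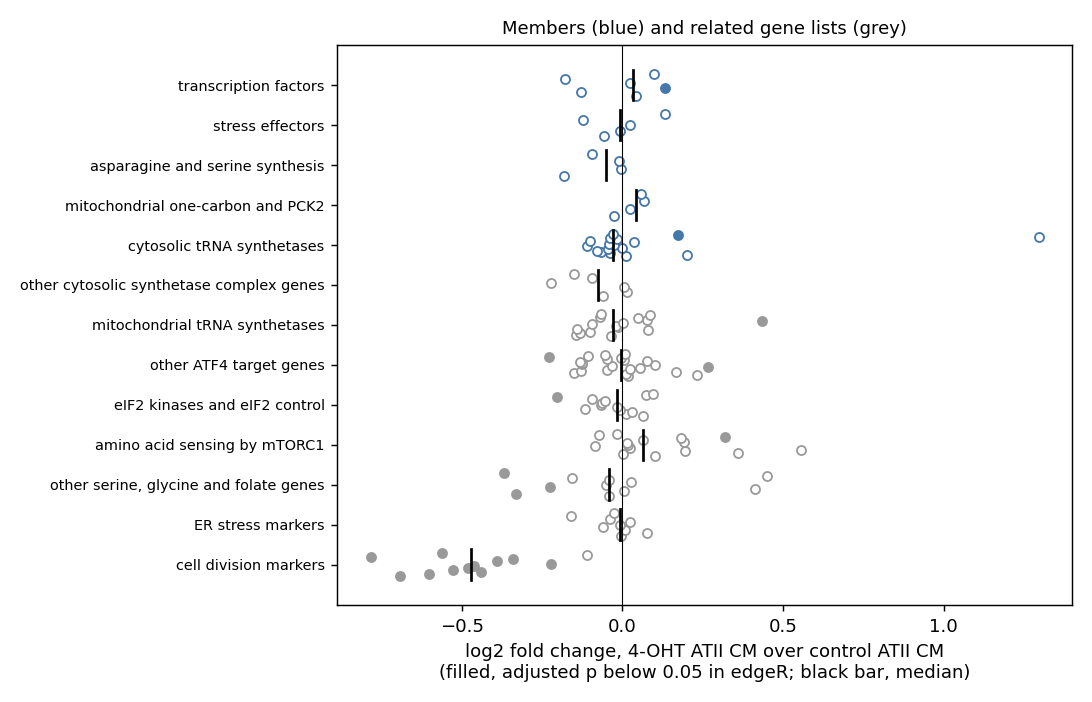
Log2 fold change (4-OHT ATII CM over control ATII CM) of single genes, one row for each list, with blue for the 36 genes, gray for related lists, filled points for DEGs and a black bar at the median. Medians of the lists other than cell division lie between -0.077 and 0.065, the cell division markers center at -0.471, and the isolated point at 1.30 is *VARS1*.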

How the data were processed

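RNA-Seq of polyadenylated RNA was measured in 6 MRC5 libraries, grouped by their labels (hours in CM: 24). Per the labels and the submitters' processing notes, the authors used Trim Galore for trimming, HISAT2 2.1.0 for mapping to GRCh38 and featureCounts 1.6.5 for counting. The deposited values are raw counts per gene without normalization. The annotation release, strand setting and treatment of multimapping reads are not given in the sources used here. Counts of 45 identifiers listed on 2 lines were added.

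A gene needed 10 counts or more over all 6 libraries to enter the test with edgeR 4.0.16 (R 4.3.3), using TMM scaling, the quasi-likelihood F test on group alone and Benjamini-Hochberg adjustment at 0.05. CPM used TMM library sizes, and CPM per kb also the merged exon length in the table. Standard errors follow from the F statistics. The total counts per library, with a median of 22273931, gave at least 100 counts in every library for 35 of the 36 members, with more counting error for those with few counts, such as *ASNS* and *DDIT3*, and the square root of the common dispersion was 4.36%. Exon overlap was taken from the table. Transcripts were aligned with minimap2 2.31 to 261 alternate contigs (at least 90% aligned, 98% identity) and to GENCODE transcripts (50%, 95%). The fits were tested on simulated data.

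The 36 genes and the related lists were chosen with earlier results of these data known. The genes named are all 36 members and, in each related list, every DEG and the most abundant gene not called, besides genes that share exons with a member and have at least as many counts. Results of some genes under this rule are not reported here. *EIF2AK4*, *ATF3*, *PPP1R15A* and the interferon and C/EBP genes were named after their values were seen. DESeq2 1.42.0, limma-voom (limma 3.58.1), RLE size factors, no TMM, no count filter, filterByExpr, a replicate block, a minimum fold of 1.5 and leaving out each library were run as alternatives. Other assays of the study were not analysed here.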

Additional observations from a re-analysis of the deposited data

How the results depend on the processing

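Whether libraries of the same number form pairs is not settled by these data. Deviations from the group mean correlated weakly between libraries of the same number, at 0.0631, 0.0256 and 0.0393 over 13051 genes. Each library correlated best with its own number, so that pairing is neither shown nor excluded. With replicate number as a block, 985 genes were called in place of 1090, and 1 of the 36 members was called higher in place of 2. Without TMM scaling 1 member was called higher, and at a fold of at least 1.5 none was, with 92 genes called in all. Leaving out 1 library at a time gave 533 (without 4-OHT replicate 2) to 1530 (without control replicate 2) genes called, with 615 without 4-OHT replicate 3 and 663 without control replicate 3. It gave 1 to 2 members called higher, 0 to 1 called lower (*TRIB3*, without control replicate 2), and a median of the members between -0.0231 and -0.006 beside -0.0125. Without the count filter 1601 genes were called, and *CARS1* became the third member called higher (adjusted p = 0.0242).

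The 14 alternative settings gave 503 values for the members. Of these, 479 kept direction and call, 9 lost the call, 2 gained one and 13 changed sign, in 5 genes. The minimum fold is among these settings and only adds a requirement to the call. A member not called in the main test therefore could not change under it. The lost calls include those of *WARS1* and *CEBPB* under the minimum fold, and the others were all of *CEBPB*. Without the count filter the log2 fold change was 0.0003041 for *SESN2*, 0.005289 for *PHGDH* and 0.008294 for *KARS1*, and limma-voom gave 0.0006468 for *KARS1*. Without TMM it was -0.001269 for *SLC38A2*. With 1 library left out, it ran between -0.0412 and 0.02244 for *SESN2*, -0.01573 and 0.01138 for *PHGDH*, -0.02369 and 0.002735 for *PSAT1*, -0.136 and 0.3826 for *CARS1*, -0.03152 and 0.02344 for *KARS1*, -0.01223 and 0.05149 for *RRAGA*, -0.03357 and 0.01767 for *IARS2* and -0.01143 and 0.02494 for *SLC38A2*. The cause of these shifts was not tested. Low counts widen the intervals of *VARS1* (32 counts) and *ASNS* (806 counts) and of related genes with few counts.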
